A study of Mus musculus with 8 samples.

Results

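Among 61196 open chromatin regions measured in mouse bone marrow progenitors, 2109 (3.45%) had accessibility that was highest in cMoP, lower in GMP-MoP and lower again in proNeu1. These stepwise regions were chosen from the measured values: a cMoP mean of at least 10 CPM, a cMoP to GMP-MoP ratio above 1.5 and under 2.5, and a GMP-MoP to proNeu1 ratio of at least 1.5. CPM is a region's count divided by the library's total over all regions, times 1e6, and each mean is over 2 libraries. Levels are per region and are not scaled by its width. Levels in cMoP, GMP-MoP and proNeu1 are therefore given as a description with no test, and comparisons of proNeu2 with them share those chosen values. The proNeu2 counts themselves, and the position of the regions, did not enter the choice.

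The study profiled 4 groups of bone marrow progenitor cells, GMP-MoP, proNeu2, proNeu1 and cMoP, by ATAC-seq with 2 libraries each. ATAC-seq uses the Tn5 transposase to insert sequencing adapters into open DNA, so that a region's count reads its accessibility. Each library started from 5000 sorted cells. The sources used here do not give the surface markers of the sort, or the strain, age and treatment of the mice. The study's title describes GMP-MoP as arising from proNeu1, and the question here is which regions hold a GMP-MoP level between those of cMoP and proNeu1.

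In mouse bone marrow, granulocyte and monocyte progenitors give rise to neutrophils through early committed stages called proNeu1 and then proNeu2, and to monocytes through the common monocyte progenitor, cMoP. The transcription factors PU.1 and IRF8 bind many enhancers of monocyte genes, and C/EBP and RUNX factors act in both branches. Enhancers, which mostly lie away from gene starts, tend to differ more between related blood cell types than promoters do.

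Promoter sequence was at hand for windows running 250 bases before to 50 bases after RefSeq start sites, and 93 such windows, of 85 genes (58 of them protein-coding), lay wholly inside stepwise regions. The 250 bases before the start are printed for 5 of these genes, picked after their values were seen to show where motifs of monocyte factors stand. The sequences are from RefSeq on GRCm38.p6 (mm10), written 5′ to 3′ in the direction of transcription. Capitals mark a match to the IRF motifs GGAANNGAA or GAAANNGAA, the PU.1 motif GAGGAAGT, the C/EBP motif TTGCNNAA or the RUNX motif TGTGGT on either strand.
Tlr11, chr14:50357664-50357913, plus strand: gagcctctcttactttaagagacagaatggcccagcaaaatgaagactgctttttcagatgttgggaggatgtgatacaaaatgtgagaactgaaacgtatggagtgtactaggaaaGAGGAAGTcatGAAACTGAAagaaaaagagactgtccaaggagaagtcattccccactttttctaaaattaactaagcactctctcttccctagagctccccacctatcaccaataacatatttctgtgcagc
Slamf9, chr1:172475110-172475359, plus strand: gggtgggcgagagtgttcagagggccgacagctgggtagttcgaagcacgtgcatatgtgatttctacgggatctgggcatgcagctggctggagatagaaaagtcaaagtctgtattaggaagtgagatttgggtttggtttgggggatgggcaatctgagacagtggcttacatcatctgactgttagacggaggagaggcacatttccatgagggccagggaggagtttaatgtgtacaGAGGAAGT
Asgr2, chr11:70092394-70092643, plus strand: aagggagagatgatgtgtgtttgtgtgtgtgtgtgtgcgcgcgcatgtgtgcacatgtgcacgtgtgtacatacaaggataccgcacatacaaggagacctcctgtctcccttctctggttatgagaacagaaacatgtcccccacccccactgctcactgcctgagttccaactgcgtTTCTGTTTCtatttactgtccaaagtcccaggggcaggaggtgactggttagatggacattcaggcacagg
Ifi207, chr1:173741810-173742059, minus strand: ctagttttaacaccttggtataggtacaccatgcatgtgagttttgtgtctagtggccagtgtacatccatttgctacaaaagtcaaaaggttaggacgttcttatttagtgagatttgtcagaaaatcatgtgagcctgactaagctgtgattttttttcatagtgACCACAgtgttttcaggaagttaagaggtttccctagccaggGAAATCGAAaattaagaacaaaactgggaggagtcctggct
Ccr2, chr9:124101933-124102182, plus strand: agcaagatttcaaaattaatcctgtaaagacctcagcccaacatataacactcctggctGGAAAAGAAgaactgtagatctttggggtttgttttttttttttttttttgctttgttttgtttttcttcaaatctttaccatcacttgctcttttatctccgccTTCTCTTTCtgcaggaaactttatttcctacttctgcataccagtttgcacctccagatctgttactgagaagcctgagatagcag

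The Tlr11 window holds a PU.1 motif and, 122 bases before the start, an IRF motif. Tlr11 encodes a Toll-like receptor that in mice recognises profilin of Toxoplasma. Its region, chr14:50357246-50358295, had 13.7 and 18.1 CPM in GMP-MoP, 1.12 and 0.613 in proNeu2, 1.98 and 1.27 in proNeu1, and 22.5 and 31.6 in cMoP. All 4 proNeu libraries lay far below the others there. The Slamf9 window is that of an inner start site of the gene, a SLAM-family surface receptor, and ends in a PU.1 motif 8 bases before it. Its region, chr1:172474915-172475849, had 20.9 and 26.8 CPM in GMP-MoP, 9.52 and 9.20 in proNeu2, 16.5 and 11.5 in proNeu1, and 30.4 and 45.9 in cMoP, so proNeu1 was also open, at a lower level. Asgr2, a subunit of the asialoglycoprotein receptor and a C-type lectin, has its IRF motif 71 bases before the start. Its region, chr11:70091742-70092928, had 20.9 and 13.4 CPM in GMP-MoP, 11.2 and 11.04 in proNeu2, 8.58 and 8.91 in proNeu1, and 26.7 and 25.8 in cMoP, with the proNeu groups below both others.

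Ifi207 belongs to the interferon-inducible p200 family, and its IRF motif stands 41 bases before the start. Its region, chr1:173741542-173742795, had 7.92 and 10.5 CPM in GMP-MoP, 1.12 and 2.45 in proNeu2, 1.32 and 1.91 in proNeu1, and 19.9 and 24.2 in cMoP, again with both proNeu groups near the bottom. Ccr2, the receptor that draws monocytes towards CCL2, has an IRF motif 191 bases before its start and a second one nearer to it. Its region, chr9:124101673-124102418, was one of the weaker ones, with 8.64 and 5.24 CPM in GMP-MoP, 7.28 and 6.74 in proNeu2, 5.28 and 2.54 in proNeu1, and 11.01 and 10.5 in cMoP. The proNeu2 libraries there overlapped those of GMP-MoP.

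Across the 93 windows, an IRF motif was present in 22 (23.7%, exact 95% binomial interval 15.5 to 33.6), against 13.2% of the 12819 windows that lay wholly inside any region. The PU.1 motif was present in 12 windows (12.9%, interval 6.85 to 21.5), against 3.67% of all. In the 658 windows inside regions about equally open in GMP-MoP and cMoP but less open in proNeu1, the shares were 15.0% for IRF and 4.56% for PU.1. In 48 windows inside regions of the opposite order, with proNeu1 highest, they were 16.7% (interval 7.48 to 30.2) and 2.08% (0.0527 to 11.1). Both of these intervals overlap the stepwise ones. Protein-coding genes made up 58 of the 85 genes of stepwise windows, against 9512 of 11141 for all windows. RUNX motifs stood in 18.3% of stepwise windows and 12.7% of all, and C/EBP motifs in 10.8% and 8.27%. The AP-1 motif TGANTCA was in 2.15% and 4.53%, the KLF motifs GGGTGTGG or GGGCGTGG in 9.68% and 13.7%, and the E-box motifs CAGCTG or CATCTG in 25.8% and 23.8%. Of the control motifs, the nuclear receptor motif TGACCT was in 18.3% and 11.1%, as wide a gap as that of some myeloid motifs, and the CTCF motif CAGGGGGC was in 4.30% and 4.67%. Motifs were read on both strands, the IRF and PU.1 motifs can overlap, some windows belong to the same gene, and a match is a run of letters and not a measured binding site. Promoter windows reach few of the regions: the sequence of the rest was not analysed here.

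The libraries held 1388525 and 1715928 counts in GMP-MoP, 1785907 and 1631168 in proNeu2, 1515953 and 1572001 in proNeu1, and 1907810 and 1896924 in cMoP. The median stepwise region held 12 and 17 counts in GMP-MoP, 4 and 4 in proNeu2, 4 and 5 in proNeu1, and 30 and 33 in cMoP, so single regions were imprecise in the proNeu groups. A count of 0 allows a level of up to 2.16 CPM (3 counts) in the smallest library, and such limits cover counting error only. The labels were checked on regions linked to marker genes: over the 209 regions of 40 monocyte and macrophage genes, summed accessibility was 3255 and 3353 CPM in GMP-MoP, 2593 and 2565 in proNeu2, 2718 and 2674 in proNeu1, and 3685 and 3742 in cMoP. Over the 63 regions of the later granule genes, which mark maturing neutrophils, it was 637 and 763 CPM in GMP-MoP, 1231 and 1232 in proNeu2, 1150 and 1118 in proNeu1, and 655 and 749 in cMoP. These 2 lists ordered the groups as their names say, monocyte genes highest in cMoP and later granule genes highest in the proNeu groups. The monocyte sum includes 15 stepwise regions, chosen for falling from cMoP to proNeu1, so it is not an independent check. The 38 regions of the primary granule genes had 736 and 883 CPM in GMP-MoP, 765 and 747 in proNeu2, 702 and 756 in proNeu1, and 654 and 693 in cMoP. Both cMoP libraries were the lowest there, and the other groups overlapped. In sorted bulk cells, fewer cells of an open type and less opening per cell cannot be told apart.

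Stepwise regions took 2.10 and 2.46% of all counts in GMP-MoP, 0.681 and 0.705% in proNeu2, 0.788 and 0.792% in proNeu1, and 3.94 and 4.27% in cMoP. The median region had 9.07 CPM in GMP-MoP, 2.43 in proNeu2, 2.93 in proNeu1 and 16.6 in cMoP. Most regions are thus moderately open in cMoP and near the limit of counting in the proNeu groups. The cMoP to GMP-MoP ratio had a median of 1.79 and the GMP-MoP to proNeu1 ratio a median of 2.95 (quartiles 2.08 and 4.82) over the 2092 regions with a count in proNeu1; the other 17 had none there. The step between GMP-MoP and proNeu1 was the smaller of the 2 ratios in 278 regions (13.2%), against 43.0% of all regions with a cMoP mean of at least 10 CPM. The choice holds the first ratio under 2.5 and sets no upper bound on the second, which by itself favours a larger second step. Nothing is read from this share or from the 2 medians. In 1878 regions (89.0%) both cMoP libraries stood above both GMP-MoP libraries and these above both proNeu1 libraries, a spacing that the choice itself favours. In edgeR's quasi-likelihood test with Benjamini-Hochberg adjustment over 47506 regions, 584 stepwise regions had an adjusted p under 0.05 with GMP-MoP below cMoP (3.49% of all tested regions did), and 1207 had GMP-MoP above proNeu1 (11.6% of all). The choice used both contrasts, so nothing is read from these counts.

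**Figure D1:**
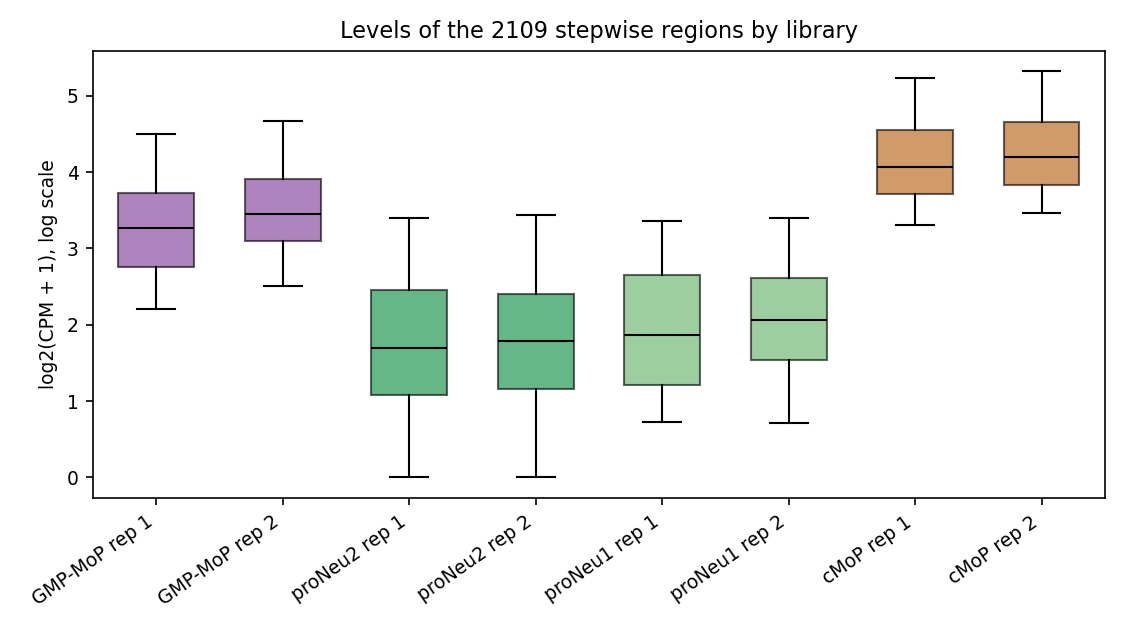
Accessibility of the 2109 stepwise regions in each of the 8 libraries, as log2(CPM + 1) on the vertical axis. Boxes show the quartiles and median over regions and whiskers the 5th and 95th percentiles; proNeu2, which the choice did not use, lies as low as proNeu1, with medians of 2.43 and 2.93 CPM over the group means.

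The regions at the edges of the choice show that it cuts a continuous range. A region linked to Kdm6a was just inside with a cMoP mean of 10.003 CPM, and one linked to Tapt1 was just outside with 9.997 CPM. Regions linked to Clvs1 and Mtmr12 had cMoP to GMP-MoP ratios of 1.5001 and 1.4998, just inside and just outside the lower bound. At the upper bound a region linked to Slc37a2 was inside at 2.499, and a region with no gene within 50 kb was outside at 2.501. Regions linked to Prkca and Adtrp had GMP-MoP to proNeu1 ratios of 1.503 and 1.4997, inside and outside.

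Read in proNeu2, the stepwise regions were nearly closed. The proNeu2 mean was at most the GMP-MoP mean divided by 1.5 in 1979 of 2109 regions (93.8%), against 34.9% of the 27860 regions with a cMoP mean of at least 10 CPM. The measure shares the GMP-MoP values of the choice. It was met by 88.4% of the 5280 regions about equally open in GMP-MoP and cMoP but at least 1.5 times lower in proNeu1 (the kept set), and by 86.1% of the 698 regions at least 2.5 times lower in GMP-MoP than in cMoP (the lost set). The proNeu2 mean was under 5 CPM in 1718 regions (81.5%), against 17.2% of the 27860, and at least 10 CPM in 81 (3.84%). The median proNeu2 level of 2.43 CPM (quartiles 1.45 and 4.28) compares with 11.3 CPM over the regions of 10 to 30 CPM in cMoP. The regions were chosen to be low in proNeu1, and proNeu2 followed proNeu1 in this.

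Levels in proNeu2 were set beside those in proNeu1, the earlier stage of the neutrophil path. The regions were chosen to be low in proNeu1, which by itself favours a proNeu2 level above proNeu1, and they passed the filter on low counts through cMoP. The proNeu2 mean was below the proNeu1 mean in 1305 regions (61.9%), against 66.6% of the kept set, 57.4% of the lost set and 55.2% of the 27860, so this share is not particular to stepwise regions. The median log2 fold change of proNeu2 over proNeu1 was -0.17, against -0.01 over all tested regions. In edgeR's quasi-likelihood test with Benjamini-Hochberg adjustment 2 stepwise regions (0.0948%) were called lower in proNeu2, against 0.0674% of all tested regions. None was called higher, against 0.00842%. The share called lower was near that of all tested regions, so the 2 calls describe single regions and not the set. At an unadjusted p under 0.05 there were 152 lower (7.21%, all regions 5.26%) and 37 higher (1.75%, all regions 4.10%). DESeq2 called 0 in either direction.

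One of the called regions lies 280 bp from an end of Zic1, a zinc-finger factor of neural development, at chr9:91364240-91365351. It had 14.4 and 9.32 CPM in GMP-MoP, 0.560 and 1.23 in proNeu2, 10.6 and 5.09 in proNeu1, and 16.2 and 21.1 in cMoP. Both proNeu2 libraries, with 3 counts together, were below both proNeu1 libraries, with 24. The counts give a proNeu2 to proNeu1 ratio of 0.113 with an exact counting interval of 0.0218 to 0.372, and the fitted log2 fold change was -3.03 with a standard error of 0.69 (edgeR adjusted p 0.0309). The other lies within Ankrd55, an ankyrin-repeat gene, at chr13:112323212-112324480, and had 22.3 and 27.97 CPM in GMP-MoP, 3.36 and 3.68 in proNeu2, 15.2 and 12.1 in proNeu1, and 44.03 and 33.7 in cMoP. Both proNeu2 libraries were again below both proNeu1 libraries, with a log2 fold change of -1.91 and a standard error of 0.44 (edgeR adjusted p 0.0309). Without proNeu2 replicate 1, proNeu2 replicate 2 or proNeu1 replicate 1 neither was called, and without proNeu1 replicate 2 only 1 was. Over all alternatives the adjusted p ran between 0.0147 and 1 for Zic1 and between 0.0224 and 1 for Ankrd55.

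The order of the other groups was then read in libraries whose counts did not choose the regions read. The rule itself was set with earlier results of these data known, so the reading is not fully independent. Of 1870 regions that met the rule in the replicate 1 libraries alone, 85.0% (exact binomial interval 83.3 to 86.6) had cMoP above GMP-MoP above proNeu1 in replicate 2. The share among all 26894 regions with at least 10 CPM in cMoP replicate 1, which share only that minimum with them, was 31.5%. Of 2197 regions that met the rule in replicate 2 alone, 81.7% (80.0 to 83.3) had that order in replicate 1, against 32.7% of the 29473 regions chosen by cMoP level. The full rule was met again less often, by 32.0 and 27.3% of the chosen regions, against 5.84 and 5.58% of the regions chosen by cMoP level. In all, 599 regions met the rule in each replicate separately.

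The sizes of both steps were also read without the choosing libraries. For regions chosen in replicate 1, cMoP to GMP-MoP summed over regions was 1.49 in replicate 2, against 1.82 in the libraries that chose them, and GMP-MoP to proNeu1 was 2.84 against 2.76. For regions chosen in replicate 2 the ratios in replicate 1 were 1.63 against 1.81 and 2.47 against 3.11. The step between cMoP and GMP-MoP was thus smaller in the held-out libraries both times, and just under the lower bound of the rule once. Median proNeu2 levels were 3.07 and 2.24 CPM in the held-out libraries. The intervals count regions within single libraries and carry no spread between cell samples.

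**Figure D2:**
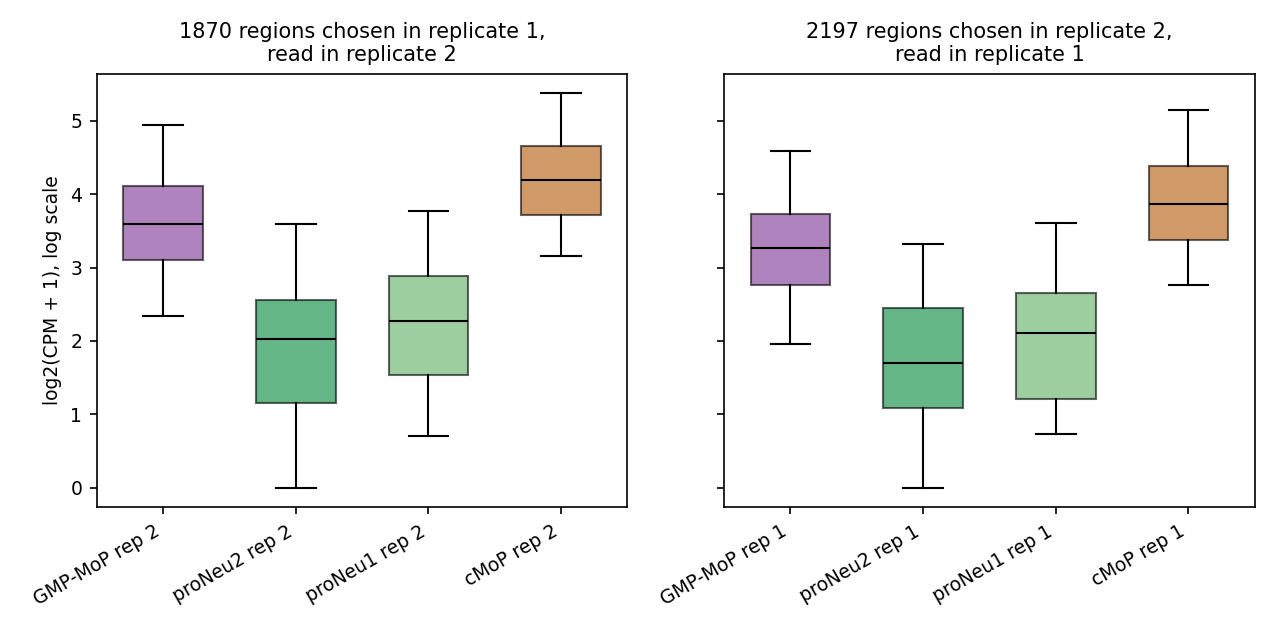
Levels, as log2(CPM + 1), of regions chosen in the libraries of one replicate number and read in those of the other, with 1870 regions on the left and 2197 on the right. Boxes show quartiles and medians and whiskers the 5th and 95th percentiles over regions; in both panels cMoP is highest, GMP-MoP next and the proNeu groups lowest.

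Stepwise regions were distal. Only 128 (6.07%, exact binomial interval 5.09 to 7.17) lay within 1 kb of either end of a protein-coding gene, against 21.1% of all regions and 22.8% of regions with a cMoP mean of 10 to 30 CPM. Gene bodies held 46.8% and the space outside genes 47.1%, and 394 regions (18.7%) were over 50 kb from any protein-coding gene, against 11.9% of all. Their median width was 897 bp, against 832 bp over all regions and 1136 bp over those with at least 10 CPM in cMoP. Another stepwise region lay within 20 kb of 275 of them (13.04%), while a stepwise region lay that near to 13.2% of the lost set, 11.1% of the kept set and 8.24% of regions with at least 10 CPM in cMoP. Between 2.26% (chromosome 19) and 4.63% (chromosome 3) of the regions of a chromosome were stepwise, the Y chromosome aside.

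Sets built with the same cutoffs show whether a distal position is shared. The mirror set, 670 regions that fall in the opposite order with proNeu1 highest, had 10% at gene ends. The kept set, with cMoP and GMP-MoP within 1.5 times of each other, had 14.1%, and the lost set had 4.01%. The stepwise share lay below those of the mirror and kept sets, with intervals that do not overlap, while its interval overlapped that of the lost set. Such intervals treat regions as independent and carry no spread between cell samples or in which regions the cutoffs choose. The median proNeu2 level was 18.2 CPM in the mirror set, 6.65 in the kept set and 1.21 in the lost set, with the stepwise 2.43 between the last pair.

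**Figure D3:**
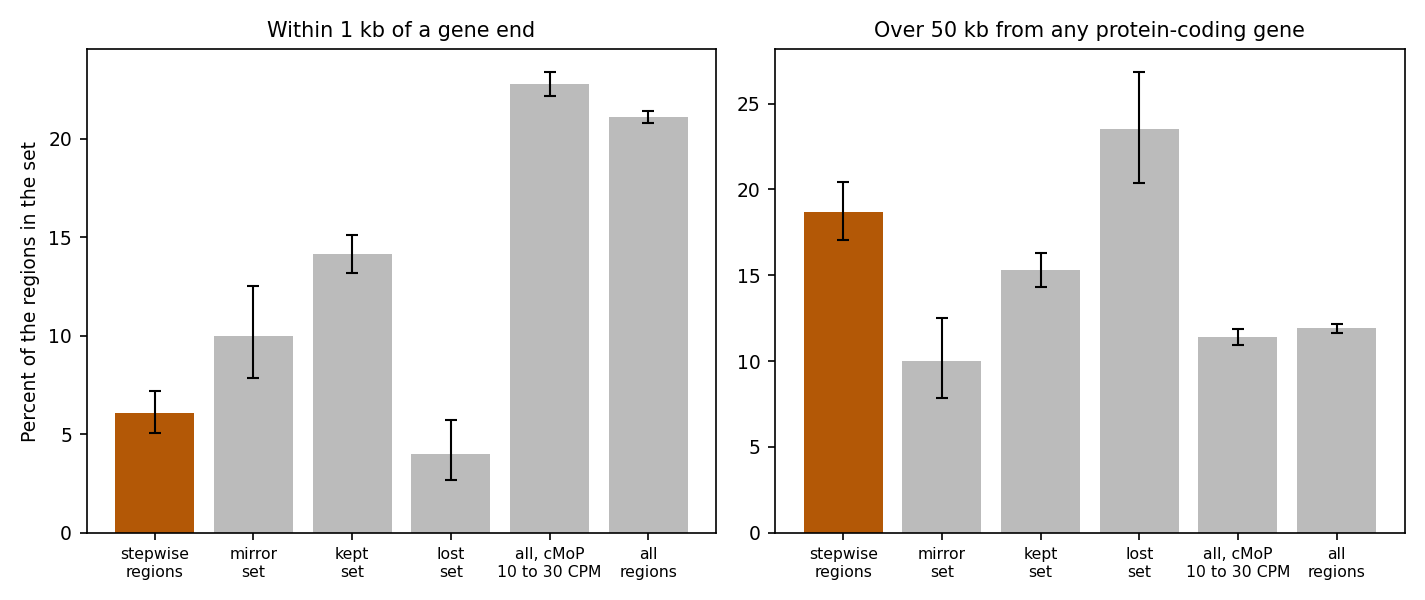
Percent of regions within 1 kb of a gene end (left) and over 50 kb from any protein-coding gene (right), for the stepwise regions, the mirror, kept and lost sets, regions with 10 to 30 CPM in cMoP, and all regions. Bars start at 0 and error bars are exact 95% binomial intervals; stepwise regions have 6.07% at gene ends, against 21.1% of all regions.

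Of the 2109 regions, 1715 could be linked to the nearest of 1449 protein-coding genes within 50 kb, a link by distance alone, which leaves the regulated gene unknown. Monocyte and macrophage genes carried 15 stepwise regions among the 124 linked regions with at least 10 CPM in cMoP (12.1%), against 6.77% of the 25347 linked regions of all genes. These 15 belong to 13 of 40 genes. Another 34 regions of these genes were in the kept set, 1 in the lost set and 0 in the mirror set. Over the 178 tested regions of the list, stepwise ones included, GMP-MoP was lower than cMoP in 7 (3.93%, all tested regions 3.49%) and higher in 2 (1.12%, all 1.97%). It was higher than proNeu1 in 34 (19.1%, all 11.6%) and lower in 16 (8.99%, all 12.4%), at an adjusted p under 0.05 in edgeR. With 15 of these regions chosen on the same contrasts, the counts describe the genes and test nothing.

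The stepwise region of the list with the highest cMoP CPM lies 1277 bp from Irf5, a transcription factor of inflammatory macrophages, at chr6:29523728-29524853. It had 31.7 and 27.4 CPM in GMP-MoP, 2.80 and 6.74 in proNeu2, 5.94 and 2.54 in proNeu1, and 46.7 and 43.8 in cMoP. All 4 proNeu libraries were below 7 CPM and far under GMP-MoP. Fcgr1 encodes CD64, the high-affinity IgG receptor of monocytes and macrophages, and its region 6396 bp away, chr3:96300365-96301556, had 25.2 and 28.6 CPM in GMP-MoP, 2.24 and 4.29 in proNeu2, 9.24 and 6.36 in proNeu1, and 45.6 and 38.5 in cMoP. Here the proNeu2 libraries were below both proNeu1 libraries.

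Itgam encodes CD11b, an integrin chain of monocytes and neutrophils. A region 13138 bp from it, chr7:128048548-128049502, had 23.05 and 21.6 CPM in GMP-MoP, 2.80 and 3.68 in proNeu2, 3.30 and 6.997 in proNeu1, and 33.5 and 39.5 in cMoP. The region at an end of Fn1, which encodes fibronectin, chr1:71652586-71654147, had 15.1 and 19.2 CPM in GMP-MoP, 6.72 and 5.52 in proNeu2, 9.24 and 12.1 in proNeu1, and 26.7 and 25.3 in cMoP, a gentle slope with cMoP only 1.51 times GMP-MoP. Within Msr1, a scavenger receptor gene of macrophages, chr8:39594602-39595435 had 15.8 and 16.3 CPM in GMP-MoP, 2.24 and 1.84 in proNeu2, 2.64 and 1.27 in proNeu1, and 27.8 and 24.2 in cMoP. GMP-MoP there was 8.22 times proNeu1, among the steeper second steps of the list.

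The stepwise regions linked to Irf8 and Ctss, named after their values were seen, had almost no counts in proNeu1, where the choice favours low levels. Irf8 is the factor that directs progenitors to monocytes, and the region 6363 bp from it, chr8:120763057-120763851, had 8.64 and 6.41 CPM in GMP-MoP, 2.24 and 5.52 in proNeu2, 0.660 and 0 in proNeu1, and 12.1 and 10.5 in cMoP. Ctss encodes the lysosomal protease cathepsin S, and the region within it, chr3:95529738-95530402, had 7.92 and 15.7 CPM in GMP-MoP, 0.560 and 1.23 in proNeu2, 0 and 0 in proNeu1, and 22.01 and 16.9 in cMoP. The proNeu1 counts were 0 or close to it at both. At Ctss the proNeu2 libraries had only 1 and 2 counts. At Irf8 they had 4 and 9 counts, against 12 and 11 in GMP-MoP, so the higher proNeu2 library came near GMP-MoP. Slamf7, Mrc1, Klf4, Ccr2 and Sirpa also carried stepwise regions.

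**Figure D4:**
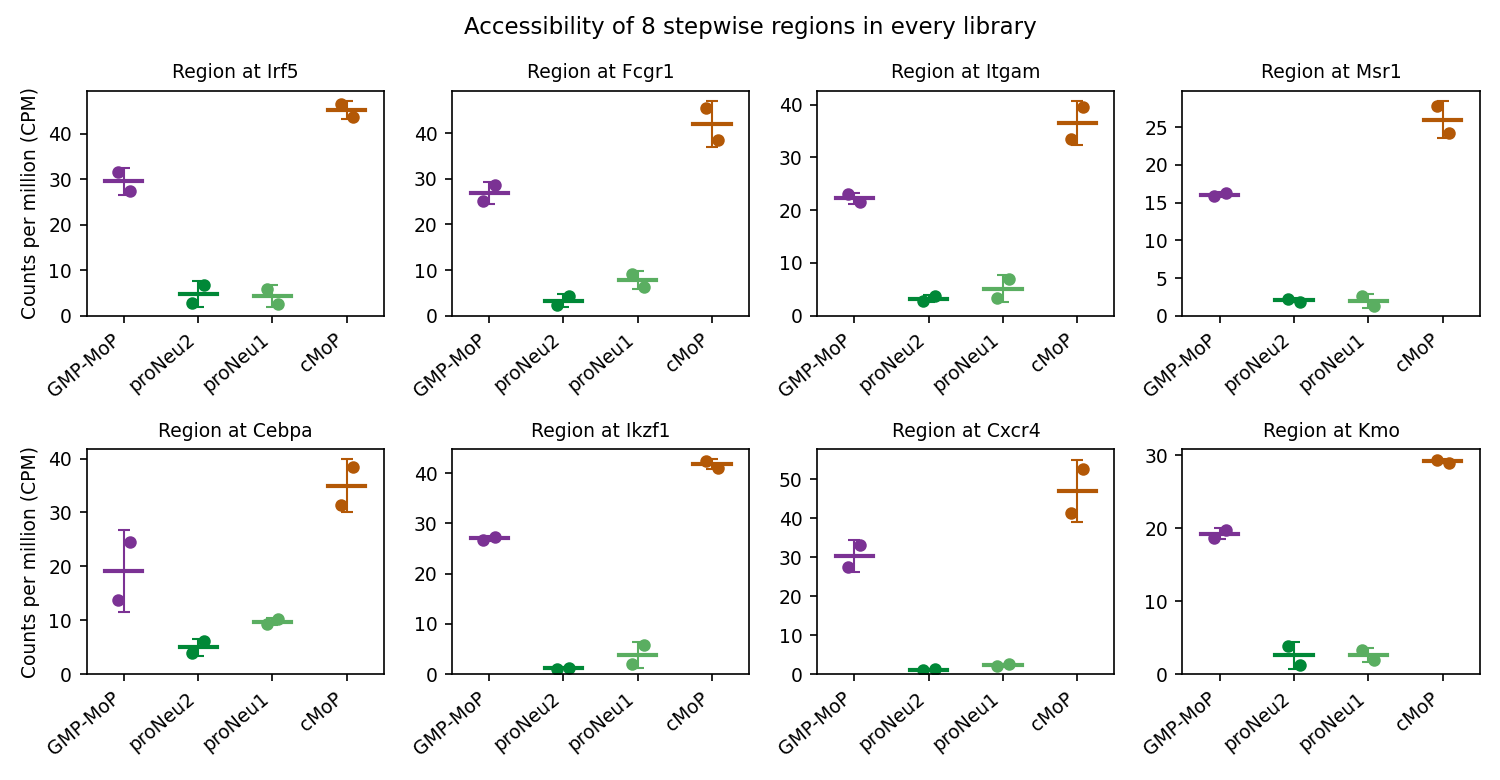
CPM of 8 stepwise regions in each library, with the 4 groups on the horizontal axis, points for libraries, and lines and bars for the mean and SD of 2. The panels share no vertical scale; at Irf5 GMP-MoP had 31.7 and 27.4 CPM, against 46.7 and 43.8 in cMoP, and at Cebpa the GMP-MoP libraries lay apart, at 13.7 and 24.5 CPM.

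Dendritic cell and antigen presentation genes carried 8 stepwise regions among 38 linked regions with at least 10 CPM in cMoP (21.1%, all genes 6.77%). These 8 belong to 7 of 21 genes. Another 9 regions of these genes were in the kept set, 4 in the lost set and 0 in the mirror set. Over all 77 regions of this list, summed accessibility was 848 and 830 CPM in GMP-MoP, 587 and 598 in proNeu2, 619 and 596 in proNeu1, and 1023 and 1064 in cMoP. This sum moved with the stepwise order, but it includes the 8 stepwise regions, which were chosen for that order. It therefore only describes the list, and its part in the other results was not tested. The region within Kmo, which encodes an enzyme of the kynurenine pathway, chr1:175659593-175660671, had 18.7 and 19.8 CPM in GMP-MoP, 3.92 and 1.23 in proNeu2, 3.30 and 1.91 in proNeu1, and 29.4 and 28.99 in cMoP. Ccr9, a chemokine receptor of plasmacytoid dendritic cells and T cells, had a region at chr9:123769069-123770170 with 17.3 and 20.4 CPM in GMP-MoP, 7.28 and 6.74 in proNeu2, 10.6 and 6.36 in proNeu1, and 30.4 and 28.5 in cMoP. Ciita, the master regulator of MHC class II genes, had a region at chr16:10487752-10488521 with 7.92 and 9.32 CPM in GMP-MoP, 1.68 and 1.23 in proNeu2, 0 and 0 in proNeu1, and 13.6 and 14.8 in cMoP. No count fell in it in proNeu1. The regions near H2-Ab1, an MHC class II gene, Flt3, a cytokine receptor of early progenitors and dendritic cells, and Cd83, a marker of mature dendritic cells, had cMoP means of 15.5, 12.1 and 11.8 CPM.

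Marker genes of other blood cells had few regions open in cMoP. Of 12 regions of T and NK cell genes with at least 10 CPM in cMoP, 2 were stepwise (16.7%, against 6.77% of all genes), near Bcl11b and Gata3, while B cell genes had 0 of 3, erythroid and megakaryocyte genes 0 of 5, and mast cell, basophil and eosinophil genes 0 of 6. Summed accessibility over the 30 T and NK cell regions was 312 and 305 CPM in GMP-MoP, 311 and 326 in proNeu2, 307 and 309 in proNeu1, and 363 and 321 in cMoP, with 1 cMoP library highest. The B cell sums were 167 and 166 CPM in GMP-MoP, 151 and 167 in proNeu2, 147 and 160 in proNeu1, and 134 and 143 in cMoP. The erythroid and megakaryocyte sums were 156 and 133 CPM in GMP-MoP, 137 and 129 in proNeu2, 147 and 135 in proNeu1, and 156 and 149 in cMoP, so both cMoP libraries were above all 4 proNeu libraries. The mast cell, basophil and eosinophil sums were 177 and 173 CPM in GMP-MoP, 163 and 166 in proNeu2, 168 and 162 in proNeu1, and 155 and 154 in cMoP, lowest in cMoP. The part of such cells in the stepwise order was not tested.

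Myeloid transcription factor genes carried 23 stepwise regions among 288 (7.99%), close to the 6.77% of all genes, in 18 of 63 genes. The list also held 60 kept, 12 mirror and 3 lost regions, so its regions point in both directions. Bach2, a repressor best known in lymphocytes, had the one of highest cMoP CPM, chr4:32248152-32251667 in its gene body, with 41.8 and 41.4 CPM in GMP-MoP, 20.2 and 20.2 in proNeu2, 19.8 and 29.9 in proNeu1, and 72.9 and 66.95 in cMoP. It stayed well open in the proNeu groups. Etv6, an ETS-family repressor, had a region at chr6:134219987-134221186 with 34.6 and 26.2 CPM in GMP-MoP, 5.60 and 5.52 in proNeu2, 4.62 and 3.82 in proNeu1, and 50.8 and 45.9 in cMoP. Ikzf1 encodes Ikaros, and the region 8524 bp from it, chr11:11781454-11782332, had 26.6 and 27.4 CPM in GMP-MoP, 1.12 and 1.23 in proNeu2, 1.98 and 5.73 in proNeu1, and 42.5 and 41.1 in cMoP. All 4 proNeu libraries were far below GMP-MoP there.

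Cebpa encodes C/EBPα, which progenitors need to become granulocytes and monocytes. Its region, 19356 bp away at chr7:35098384-35099937, had 13.7 and 24.5 CPM in GMP-MoP, 3.92 and 6.13 in proNeu2, 9.24 and 10.2 in proNeu1, and 31.4 and 38.5 in cMoP. The GMP-MoP libraries differed widely and the lower one was not far above proNeu1. The region linked to Mef2a, a MADS-box factor, lies 48811 bp away, near the 50 kb limit of a link. At chr7:67425267-67426378, it had 12.2 and 14.6 CPM in GMP-MoP, 7.28 and 4.29 in proNeu2, 8.58 and 8.27 in proNeu1, and 25.2 and 30.6 in cMoP. Erg, an ETS factor of stem cells, had one at chr16:95438925-95440338 with 11.5 and 17.5 CPM in GMP-MoP, 6.72 and 9.20 in proNeu2, 8.58 and 9.54 in proNeu1, and 25.2 and 24.2 in cMoP, where GMP-MoP was only 1.60 times proNeu1. Gfi1, a repressor that drives granulocyte development, named after its values were seen, had a region 7771 bp away, chr5:107707844-107708884, with 10.8 and 11.7 CPM in GMP-MoP, 2.24 and 2.45 in proNeu2, 7.26 and 5.09 in proNeu1, and 27.8 and 21.6 in cMoP. The cMoP libraries were the highest there.

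Cytokine and chemokine receptor genes carried 7 stepwise regions among 88 (7.95%), close to the 6.77% of all genes. Cxcr4, the receptor that holds myeloid cells in the marrow, had a region 15492 bp away, chr1:128607791-128608812, with 27.4 and 33.2 CPM in GMP-MoP, 1.12 and 1.23 in proNeu2, 1.98 and 2.54 in proNeu1, and 41.4 and 52.7 in cMoP. At 13.4 times proNeu1 in GMP-MoP, it was the steepest second step of those named for this list. The regions near Tgfbr2, a receptor for TGF-β, Ccr1, a chemokine receptor, Il4ra, the interleukin 4 receptor chain, Il1r2, a decoy receptor for interleukin 1, and Ifngr1, the interferon γ receptor, were weaker. Their cMoP means were 16.3, 15.8, 14.2, 13.7 and 10.8 CPM in that order. The Ifngr1 region lies 43529 bp from the gene. Its cMoP libraries differed, with 14.7 and 6.85 CPM, and the lower one was close to GMP-MoP.

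Phagocytosis and lysosome genes had 3 stepwise regions among 79 (3.80%) and inflammatory response genes 3 among 84 (3.57%), both below the share of all genes. Within Cd36, a scavenger receptor gene, chr5:17854126-17855257 had 23.05 and 46.6 CPM in GMP-MoP, 4.48 and 3.68 in proNeu2, 9.24 and 5.73 in proNeu1, and 50.8 and 59.04 in cMoP, and the higher GMP-MoP library was near the lower cMoP library. Psap, which encodes the lysosomal saposins, and Atp6v0d2, a proton pump subunit, had the others. The region at an end of Ccl2, the chemokine that CCR2 binds, chr11:82035029-82035863, had 12.96 and 12.8 CPM in GMP-MoP, 1.12 and 3.68 in proNeu2, 1.98 and 3.82 in proNeu1, and 26.2 and 25.3 in cMoP. Tlr13, a receptor for bacterial ribosomal RNA, had a region at chrX:106134746-106136843 with 21.6 and 25.6 CPM in GMP-MoP, 7.28 and 11.6 in proNeu2, 13.9 and 12.1 in proNeu1, and 39.8 and 44.8 in cMoP. Its proNeu levels were well above 0. Ptgs2, which encodes cyclooxygenase 2, had one at chr1:150143304-150144249 with 16.6 and 14.6 CPM in GMP-MoP, 1.12 and 3.07 in proNeu2, 2.64 and 3.82 in proNeu1, and 22.01 and 30.05 in cMoP. At Ccl2 and Ptgs2 the proNeu libraries were all under 4 CPM.

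Later granule and neutrophil maturation genes had 2 stepwise regions among 21 (9.52%, all genes 6.77%). They lie 32374 bp from Lyst, a lysosomal trafficking gene, and 15819 bp from Fpr2, a formyl peptide receptor. Primary granule genes had 0 among 22, stem and early progenitor genes 0 among 38, and cell cycle genes 1 among 51. That region lies 41679 bp from Ccnd1, which encodes cyclin D1. Lists of so few regions give shares that 1 region moves widely.

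The gene-linked stepwise regions with the highest cMoP levels were near genes of no single function. The first of them spans an end of S100a10, a partner of annexin A2, at chr3:93554701-93556551, with 36.01 and 53.03 CPM in GMP-MoP, 11.8 and 20.8 in proNeu2, 25.1 and 17.8 in proNeu1, and 69.7 and 89.1 in cMoP. Taok3, which encodes a protein kinase, had a region at chr5:117158280-117160394 with 42.5 and 43.7 CPM in GMP-MoP, 7.84 and 6.74 in proNeu2, 3.96 and 6.997 in proNeu1, and 68.1 and 67.5 in cMoP. Cadm1, a cell adhesion gene, had one at chr9:47733665-47734818 with 28.1 and 35.5 CPM in GMP-MoP, 3.36 and 2.45 in proNeu2, 1.98 and 3.82 in proNeu1, and 58.7 and 63.8 in cMoP, and its GMP-MoP to proNeu1 ratio of 10.98 was the highest of these 10 regions. The rest were near Arhgef19, Ccnc, Bach2, Pkdcc, Zfp385a, Cmss1 and Scel, with cMoP means between 59.9 and 73.3 CPM.

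Most genes with a stepwise region had 1 (1234 of 1449 genes), 175 had 2 and 32 had 3. Fhit, a large gene at a fragile site, had the most, with 6 of its 20 regions spread within chr14:9550092-11162061. These 6 had mean levels of 9.72 to 23.8 CPM in GMP-MoP, 1.20 to 6.17 in proNeu2, 1.92 to 11.7 in proNeu1 and 17.9 to 38.1 in cMoP. Of the 14 other regions, 8 had the same order of the 3 group means without meeting the rule, and 11 had under 10 CPM in cMoP. The highest of those 14 in cMoP, at 53.4 CPM, was about as high in GMP-MoP.

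Sema6d, a semaphorin gene, had 5 stepwise regions among 12 within chr2:124089943-124667789. Their mean levels were 6.89 to 15.2 CPM in GMP-MoP, 0 to 2.93 in proNeu2, 1.60 to 4.54 in proNeu1 and 11.04 to 32.6 in cMoP. Of the 7 others, 5 had the same order of the 3 means. Hacd4, Lpp, Magi2, Pdgfc, Prkce and Ubac2 had 4 stepwise regions each, out of 9, 27, 14, 9, 37 and 18 regions. Pdgfc, which encodes a platelet-derived growth factor, had them between 9869 and 76178 bp from the nearer end of its interval, while Prkce, a protein kinase C gene, was the only one of these 8 genes with a mirror region too.

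**Figure D5:**
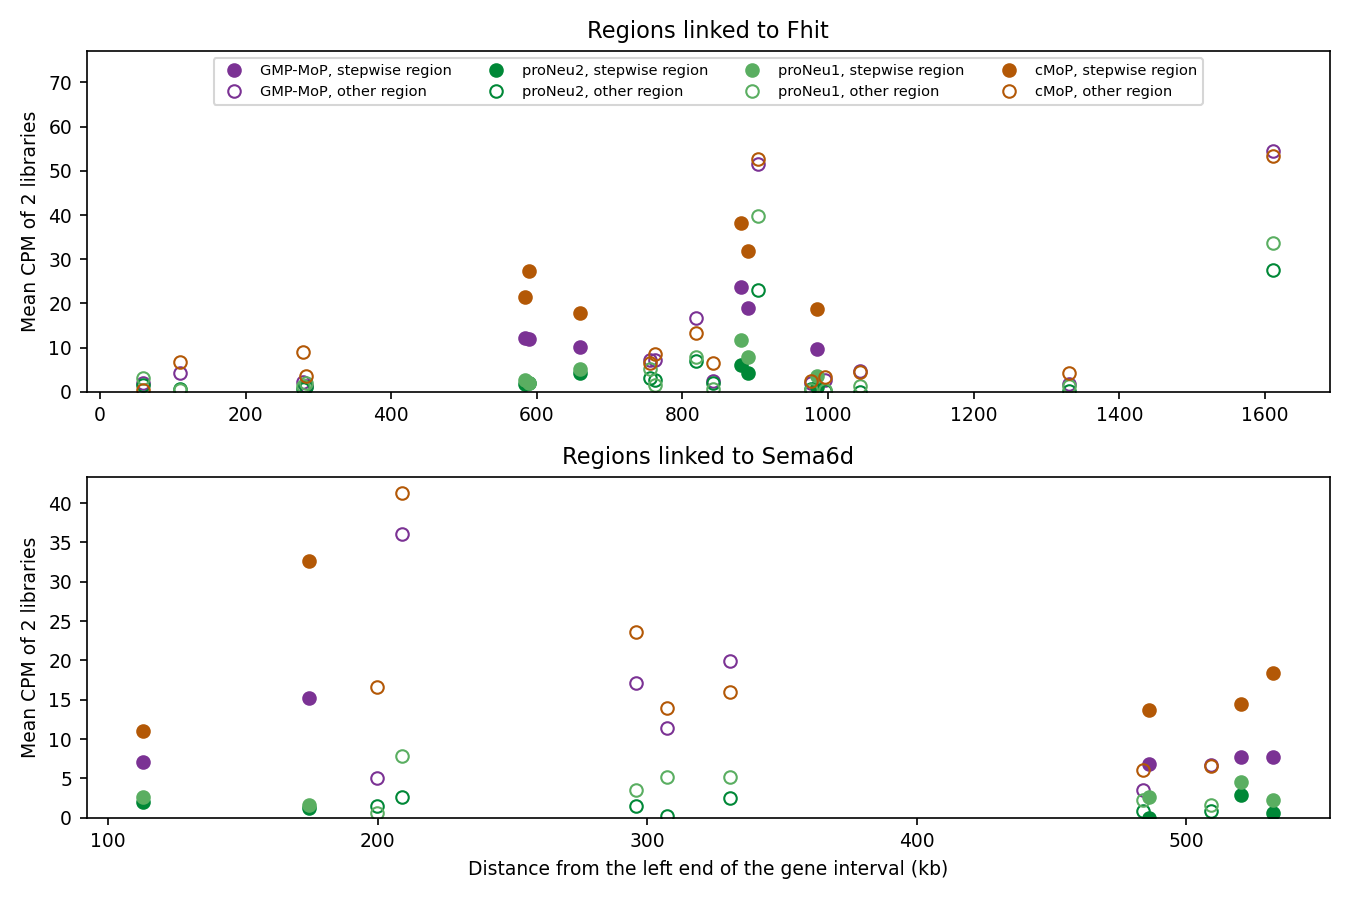
Mean CPM of 2 libraries in each group for every region linked to Fhit (top) and Sema6d (bottom), against the distance in kb from the left end of the gene interval. Filled points are stepwise regions (6 and 5) and open points the other linked regions, some of which are as open in GMP-MoP as in cMoP.

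Other regions within 20 kb of a stepwise region were tested as neighbours, since their own counts did not choose them except by leaving stepwise regions out. Of 3298 tested neighbours, GMP-MoP was above proNeu1 in 488 (14.8%) and below it in 244 (7.40%), against 11.6 and 12.4% of all tested regions (edgeR, adjusted p under 0.05). The median log2 fold change was 0.18 in neighbours and 0.01 in all tested regions. With total-count scaling the split was 581 higher (17.6%) and 168 lower (5.09%), and all tested regions shifted too, to 14.1% higher and 8.99% lower. Between GMP-MoP and cMoP, 149 neighbours (4.52%) were lower and 34 (1.03%) higher, against 3.49 and 1.97% of all, with median log2 fold changes of -0.10 and -0.02. With loess offsets, which scale libraries by region abundance, 71 were lower (2.15%) and 33 higher, against 2.01% lower over all regions, so that the share lower no longer stood apart from that of all regions.

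Neighbours of the mirror set pointed the other way. Of 1374, GMP-MoP was above proNeu1 in 71 (5.17%) and below it in 262 (19.1%), and above cMoP in 43 (3.13%) and below it in 29 (2.11%). Against proNeu1, neighbours of both sets leaned in the direction of the regions beside them. Among the neighbours of stepwise regions, 2 were lower in proNeu2 than in proNeu1 (0.0606%, all tested regions 0.0674%) and 0 higher (all 0.00842%), about as among all regions. The neighbours with GMP-MoP above proNeu1 numbered 220 without GMP-MoP replicate 2 (6.11%, all tested regions 4.75%), 315 and 272 without proNeu1 replicate 1 or 2 (8.59 and 7.40%, all 6.67 and 5.98%), and 107 in DESeq2 (3.24%, all 2.24%). Those with GMP-MoP below cMoP numbered 61 and 69 without GMP-MoP replicate 1 or 2 (1.67 and 1.92%, all 1.19 and 1.31%), 78 and 46 without cMoP replicate 1 or 2 (2.18 and 1.31%, all 1.60 and 0.816%), and 2 in DESeq2.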

How the data were processed

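The authors deposited, for each of 8 libraries, a whole-number read count at the same 61196 regions, taken as raw counts because the library totals differ. Per the submitters' processing notes, the tools were edgeR 3.32.1, HOMER 4.11 and Bowtie2 2.3.5.1, on mm10. Tn5 shift, removal of duplicate and mitochondrial reads, and region calling could each change levels and are not stated in the sources at hand. Totals cover these regions only, and PCR reads are not independent molecules.

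CPM is a count divided by the library's total, times 1e6. Differences came from edgeR 4.0.16 under R 4.3.3, with TMM scaling, filterByExpr at a minimum count of 10 and a robust quasi-likelihood fit over all 8 libraries, Benjamini-Hochberg adjusted over the 47506 regions kept; all 2109 stepwise regions were kept. A standard error is the log2 fold change over the root of its F statistic. The code was tested on simulated data. Alternatives were other scalings, no filter, DESeq2 1.42.0, a replicate block and leaving out each library. The labels call replicates biological but name no animals, so the spread behind the p-values, that between these samples only, may be technical. With 2 libraries against 2, an exact permutation test cannot go below a two-sided p of 0.333, and none was used.

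Regions were linked to the nearest interval of 21900 protein-coding genes of a RefSeq table of GRCm38.p6 within 50 kb; the table gives no strand, so gene ends are starts or stops. Promoter windows covered 17492 of these genes. No genome sequence was used, so motifs were read in promoter windows in place of the region centres first planned.

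The regions and the 14 gene lists (324 genes) were chosen with earlier results of these data known. Named were the 10 linked regions of highest cMoP level, up to 6 genes a list by cMoP level, the 5 genes with most regions and ties, regions called between proNeu2 and proNeu1, and those nearest each threshold. Some results under this rule are not reported here.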

Additional observations from a re-analysis of the deposited data

How the results depend on the processing

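Scaling by TMM in the rule gave 2052 regions, 1895 of them shared with the 2109, and a cMoP minimum of 20 CPM gave 722; leaving out one library gave 1758 to 2664, of which 1271 of 1758 and 1301 of 1981 were shared without GMP-MoP replicate 1 or 2, 1952 of 2103 and 1954 of 2116 without proNeu1 replicate 1 or 2, and 1702 of 2664 and 1449 of 1922 without cMoP replicate 1 or 2. The median proNeu2 level was 2.24 CPM in proNeu2 replicate 1 alone. The share near gene ends was 4.55% within 500 bp, 17.8% within 5 kb, and 8.31% for regions of at least 20 CPM in cMoP. The held-out order held in 81.7% with the replicates exchanged and in 86.2% with TMM scaling, a setting chosen after seeing the data. DESeq2 called 0 regions lower in proNeu2 than in proNeu1, 0 lower in GMP-MoP than in cMoP and 314 higher in GMP-MoP than in proNeu1, the last 723 with loess offsets. For neighbours DESeq2 called 2 lower in GMP-MoP than in cMoP (0.0606%, all 0.00842%) and 107 higher in GMP-MoP than in proNeu1 (3.24%, all 2.24%). The first was 71 in edgeR with loess offsets (2.15%, all 2.01%). In the main edgeR fit the pair was 45 (5.01%) and 146 (16.2%) within 5 kb. Within 50 kb it was 267 (3.79%) and 940 (13.3%), against 3.49 and 11.6% of all tested regions. Fewer or more neighbours are tested at those distances. Leaving out one library gave 0 to 2 regions lower in proNeu2, 102 to 516 lower in GMP-MoP than in cMoP, 606 to 1188 higher in GMP-MoP than in proNeu1, and for neighbours 46 to 142 and 220 to 487. The share called over all tested regions also differed between these fits, so nothing is read from these ranges. Where not stated, the cause was not tested. Total-count scaling moved the median log2 change of all regions between GMP-MoP and proNeu1 to 0.12, against 0.01. Replicate differences of any pair of groups correlated at -0.01 to 0.08, highest for GMP-MoP with cMoP. Counting error at low counts can hide a shared batch, so these values cannot exclude one. With the replicate block 2 regions were lower in proNeu2 (all tested regions 0.0737%). Then 640 were lower in GMP-MoP than in cMoP (all 3.66%) and 1214 higher in GMP-MoP than in proNeu1 (all 11.7%). The neighbours numbered 157 (4.76%) and 490 (14.9%) in these 2 comparisons. The motif share in region centres was not run. With TMM scaling 565 of 636 levels of named regions moved by less than 1 SD. Low counts in the proNeu groups limit single regions.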
